A study of Mus musculus with 12 samples.

Results

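The BCL2 family genes described here were 10 of the 54446 genes counted in a YTHDF2 RIP-seq experiment on tumor-infiltrating myeloid cells. They were chosen by name, as 5 members whose proteins keep cells alive (Bcl2, Bcl2l1, Mcl1, Bcl2a1b and Bcl2a1d) and 5 whose proteins promote cell death (Bak1, Bcl2l11, Bid, Bad and Bmf). Each symbol matched a single Ensembl identifier of the count files through the GENCODE annotation. The cells were CD11b+ and came from tumors of MC38, a colon carcinoma line, grown in WT mice, which were either left unirradiated (Ctrl) or given a single dose of 20 Gy to the tumor 3 days before collection (IR). The study's methods give the mice as 8 to 10 weeks old and of both sexes, and describe each sample as cells pooled from 5 mice and as a technical replicate, so the p-values measure the spread between 3 pools per condition, which may be technical. Every pool gave an Input library, a small part of the lysate that measures transcript abundance, and a YTHDF2 immunoprecipitation (IP) library from the rest, which made 12 libraries in 4 groups of 3. The labels give an Abcam antibody and isolation of mRNA, whereas an Aviva antibody and a kit for total RNA are named in the methods.

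Proteins of the BCL2 family decide whether the outer mitochondrial membrane is breached, the step that commits a cell to apoptosis. Survival members bind and hold back the pore-forming effectors such as BAK1, while BH3-only members such as BIM (Bcl2l11), BID, BAD and BMF either occupy the survival members or activate the effectors. Neutrophils and other myeloid cells are known for their dependence on MCL1 and on the A1 proteins encoded by the Bcl2a1 copies, whose mRNAs and proteins turn over quickly. YTHDF2 is a cytoplasmic reader of N6-methyladenosine (m6A) that brings the mRNAs it holds to decay.

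The m6A mark is most often placed on the adenosine of the sequence GGACT, written with U for T in RNA, and a stretch around such a pentamer is shown for 6 members. Bcl2, Bid and Bmf were recovered above Input in Ctrl, and Mcl1, Bcl2l11 and Bad below it. The capitals mark GGACT, with 10 bases on either side, written as DNA on the strand of the transcript from the mm10 genome. Of each gene's copies, the one nearest the stop codon is shown whose 25 bases did not cross an exon border. The region shown need not hold most copies. In Bcl2l11, 4 of 5 copies lay in the 3′ untranslated region, and in Bid 1 of 4 lay in the 5′ untranslated region.
Bcl2, chr1:106542701-106542725, minus strand, 3′ untranslated region: ggtcttccatGGACTggagaaggga
Bid, chr6:120901764-120901788, minus strand, 5′ untranslated region: gtgattccctGGACTctgtgagctg
Bmf, chr2:118532285-118532309, minus strand, 3′ untranslated region: tccaggaagtGGACTgagacttgct
Mcl1, chr3:95660832-95660856, plus strand, 3′ untranslated region: gtgcaataggGGACTcttaaagctc
Bcl2l11, chr2:128126226-128126250, plus strand, 5′ untranslated region: tctgattctcGGACTgagaaacgca
Bad, chr19:6951774-6951798, plus strand, 3′ untranslated region: ctcctgttctGGACTgccctcgggt
The pentamer was counted on the transcript strand of 1 mRNA per gene, the one with the longest coding sequence. It was common, being present in 86.7% of the 21901 coding genes at a median of 1.02 per kb. Mcl1 held 8 copies (2.34 per kb), a number that 5.13% of the mRNAs within 10% of its length reached or passed, and 6 of them lay in its 3′ untranslated region. Bcl2 held 9 copies (1.25 per kb), Bmf 9 (1.94 per kb), Bid 4 (1.83 per kb), Bad 3 (2.07 per kb) and Bcl2l11 5 (0.993 per kb). Bak1 had 4 and Bcl2l1 had 3. No GGACT was found in Bcl2a1b or Bcl2a1d, whose mRNAs of 817 and 863 bases were the shortest of the family. The number per kb did not sort the members by recovery, since Mcl1 and Bad, with the highest densities, were both below Input. A match of these letters does not show that the site was methylated.

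Between 27852948 and 42382532 reads per library fell on genes. The share of uniquely aligned reads assigned to no gene, which need not lie between genes, was 24.6 to 27% for Input libraries. For IP libraries it was 41.8 to 42.7% without and 49.4 to 54.1% with IR, highest in IR pool 1. Replicates varied more in the IR IPs (variance-to-mean ratio of counts 18.7 to 23.2 between pairs) than in the other groups (3.69 to 11.1). All 6 myeloid markers and all 7 neutrophil markers were detected in every group, whereas the 7 T and NK cell markers summed to at most 1.98 CPM (counts scaled to a common library size) in any Input, with Trac at 0 in the Ctrl Inputs and Ncr1 at 0 in the IR Inputs. Markers of tumour epithelium summed to 119 to 127 CPM in the Ctrl Inputs and 90.8 to 96.8 CPM in the IR Inputs. Krt19 was at 0, and nearly all of the sum was Cdh1, at means of 119 (Ctrl) and 88.3 CPM (IR). Epcam was at 4.63 and 5.92 CPM, Krt18 at 0.192 and 0.224 CPM and Krt8 at 0.00855 and 0 CPM. B cell, fibroblast and endothelial markers summed to at most 27.8, 12.5 and 26.8 CPM in any Input, and those of dendritic cells to 224 to 273 CPM. Most of the dendritic sum was Ccr7 (means of 169 and 211 CPM), and most of the endothelial sum was Pecam1 (25.4 and 20.8 CPM). Ythdf2 itself had 58 ± 0.472 CPM in Ctrl and 51.4 ± 3.81 CPM in IR Inputs (SD, n = 3).

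The first question was how much of each member the cells held. Levels between genes were compared as CPM divided by the length of the gene's merged exons in kb. The scale was that of edgeR's TMM normalization of all 12 libraries. Merged exons can be longer than the mRNA with the longest coding sequence, at 8029 against 5036 bases for Bcl2l11 and 2558 against 1452 for Bad. For Mcl1 both were 3418 bases. The order of close levels and the shares given below depend on this choice, and no other length was tried. In the Ctrl Inputs, Bcl2a1d stood highest at 202 ± 7.95 CPM per kb (SD, n = 3), ahead of Mcl1 at 164 ± 5.32. Bak1, the pore-forming effector, followed at 58.5 ± 2.38 and overlapped with Bcl2a1b at 53.8 ± 2.96. Bcl2l1, which encodes BCL-XL, was measured at 21 ± 0.605 CPM per kb. The 4 BH3-only genes lay close together, from Bid at 8.37 ± 0.708 through Bad at 7.27 ± 0.142 and Bcl2l11 at 6.26 ± 0.322 to Bmf at 5.69 ± 0.519, the last pair overlapping in their libraries. Bcl2, the founding member of the family, was the lowest of the 10 at 4.03 ± 0.292 CPM per kb.

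After IR the order of the Input levels changed in a few places. Bcl2a1b reached 80.9 ± 2.71 CPM per kb and lay above Bak1 at 56.5 ± 0.995 in every library. Bcl2l11 reached 9.42 ± 0.34 and led the BH3-only genes by this measure of length. Its values overlapped with those of Bad (8.79 ± 0.865), which overlapped with Bid (7.77 ± 0.69), and Bid with Bmf (6.81 ± 0.29). Bcl2a1d and Mcl1 kept the first places with 272 ± 5.57 and 207 ± 4.13 CPM per kb, and Bcl2 the last with 3.56 ± 0.125.

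The order in the IP libraries was another one. In the Ctrl IPs Bcl2 stood sixth at 24.4 ± 0.831 CPM per kb, above Bid at 18.1 ± 0.665, and the lowest places were held by Bcl2l11 at 3.19 ± 0.201 and Bad at 1.75 ± 0.533. In the IR IPs Mcl1 (113 ± 0.659) and Bcl2a1d (112 ± 18.5) overlapped at the top, Bcl2 was at 15 ± 1.15, and Bcl2l11 at 6.7 ± 0.938 overlapped with Bmf at 6.81 ± 0.82.

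**Figure D1:**
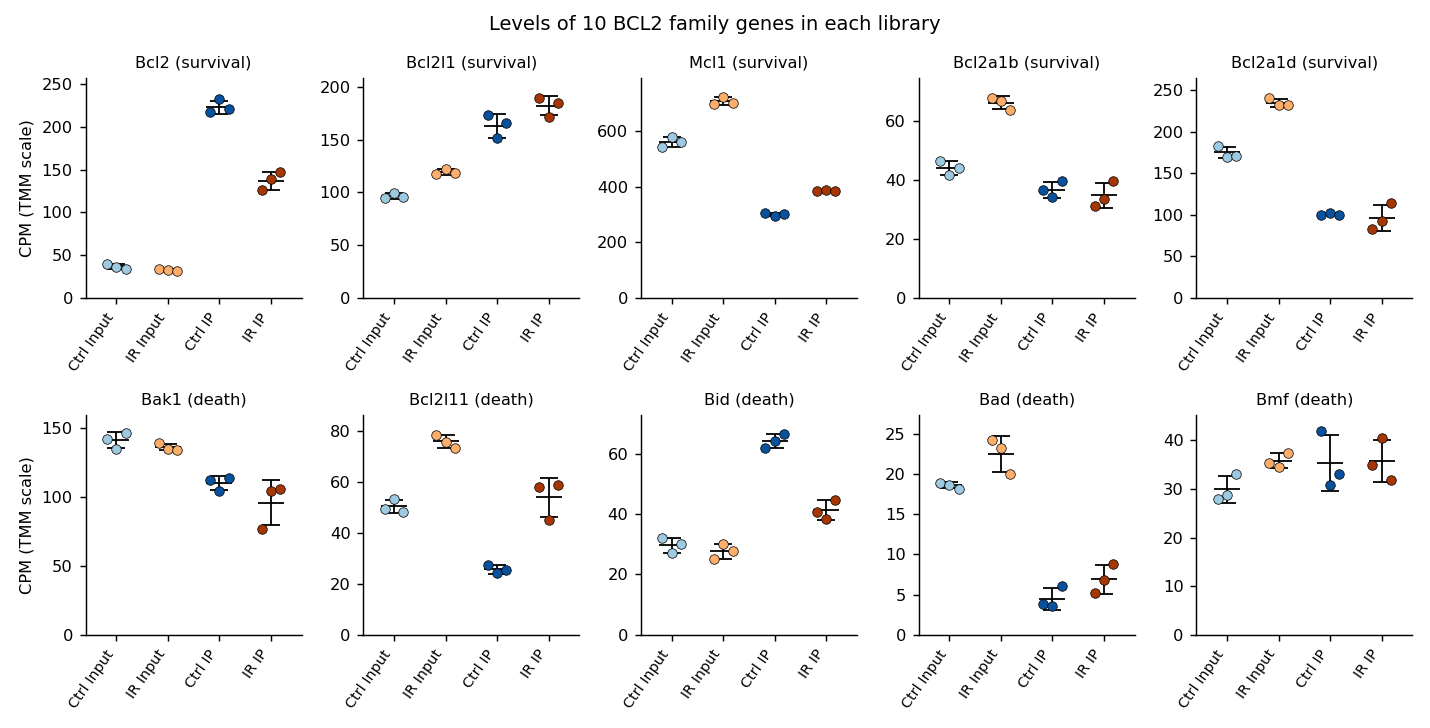
Levels of the 10 members in the 12 libraries, with the group on the horizontal axis and CPM on the TMM scale on the vertical axis; points are libraries and bars the mean ± SD (n = 3). Bcl2 and Bid sit higher in both IP groups than in either Input, Mcl1 and Bad lower, and the 3 IR IP libraries of Bcl2 (126 to 147 CPM) lie below those of the Ctrl IPs (217 to 232 CPM).

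The 2 Bcl2a1 genes are near copies of each other. Their coding sequences were identical at 98.8% of 519 bases, and 31.1% of the 100-base windows of Bcl2a1b and 54.7% of those of Bcl2a1d occur unchanged in another copy, so that the split of reads between them is uncertain. Gm29094 covers 49.1% of the exon bases of Bcl2a1b on the same strand. The strand option of the counting is not given in the sources used here, and reads of Bak1, Bid, Bad and Bcl2 on bases that they share with genes of the opposite strand (25.5%, 17.7%, 20.5% and 6.09% of their exon bases) cannot be assigned with certainty. With the counts of the 4 Bcl2a1 copies summed, the calls of the single copies were unchanged in all 10 results for Bcl2a1b and Bcl2a1d, although the sum had a log2 ratio of IP to Input in Ctrl of -0.54 where Bcl2a1b alone had -0.19.

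The weight of survival against death members can be read without any scaling between libraries, as the share of the summed CPM per kb of the 10 genes. Survival members made up 83.8% ± 0.482 (SD, n = 3) in the Ctrl Inputs, with 83.9%, 84.2% and 83.3% in the 3 pools. In the IR Inputs they made up 86.9% ± 0.0687, with 86.8%, 86.9% and 86.9%. The IR Inputs thus lay above the Ctrl Inputs in all pools. Of the survival members, only Bcl2a1d (38.1% in Ctrl and 40.1% in IR) and Bcl2a1b (10.1% and 11.9%) had larger mean shares in the IR Inputs. The share of Bak1 went from 11% to 8.32%. In the IPs the survival share was 80.4% ± 0.483 in Ctrl and 82.6% ± 0.941 in IR. No test was made of these shares, and they cover the 10 genes only. Outside them, the pore-forming effector Bax had mean levels of 86.5 CPM in the Ctrl Inputs and 176 CPM in the IR Inputs. The survival copy Bcl2a1a, also left out, had 126 and 164 CPM. The shares therefore do not give the weight of survival against death over the whole family.

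The same total was distributed otherwise in IP than in Input. Bcl2 took 0.758% ± 0.0482 of it in the Ctrl Inputs and 6.35% ± 0.336 in the Ctrl IPs, and 0.525% ± 0.0119 and 3.85% ± 0.0907 in IR. Bid went from 1.57% ± 0.115 to 4.7% ± 0.186 in Ctrl and from 1.14% ± 0.105 to 2.99% ± 0.174 in IR. Mcl1 took 30.9% ± 1.36 in the Ctrl Inputs and 22.8% ± 0.246 in the Ctrl IPs, against 30.5% ± 0.673 and 29.1% ± 2.38 in IR. Bcl2l11 was the member whose share lay below Input in the Ctrl IPs (0.828% ± 0.0435 against 1.18% ± 0.0693) and above it in the IR IPs (1.73% ± 0.265 against 1.39% ± 0.0344), with no overlap of the libraries in either condition. A share depends on the other members. The log2 ratio of IP to Input of Bcl2l11 in IR was itself negative, at -0.44. Those of the members with the largest shares were lower still, at -1.23 for Bcl2a1d, -0.82 for Mcl1 and -0.87 for Bcl2a1b.

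**Figure D2:**
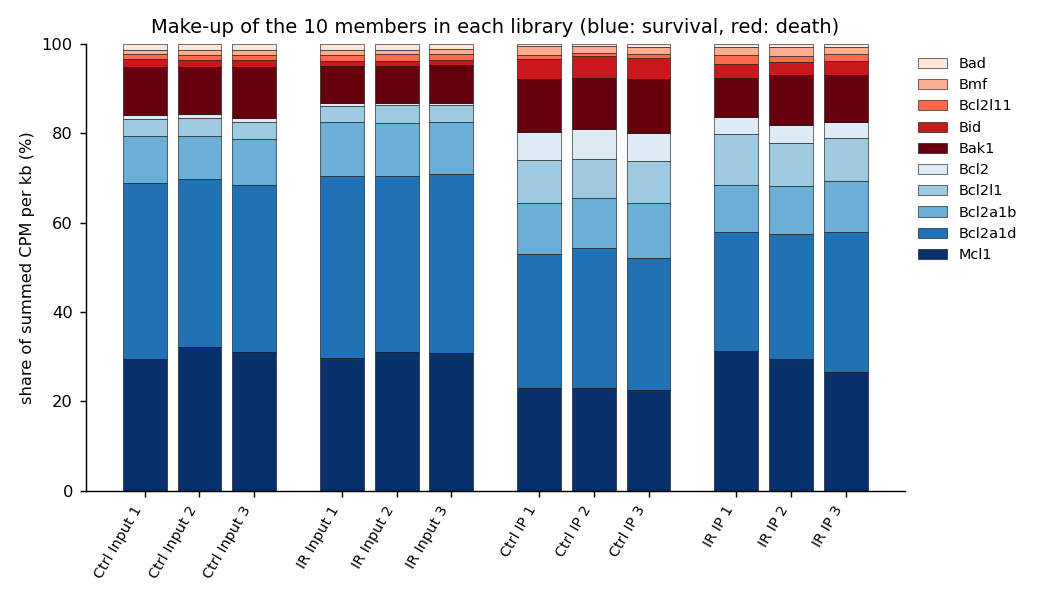
Make-up of the 10 members in each library, as each gene's percent of their summed CPM per kb; bars are single libraries, blue shades are survival and red shades death members. Survival members take 80 to 86.9% in every library, and the palest blue band, Bcl2, is wider in the IPs than in the Inputs.

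Recovery with YTHDF2 was measured next, as the log2 ratio of IP to Input in edgeR's quasi-likelihood test, fitted over every gene that reached 10 counts in 3 or more of the libraries compared. A member was called at a Benjamini-Hochberg adjusted p under 0.05 over all tested genes, and all 10 members passed the filter in every comparison. In Ctrl, Bcl2, Bcl2l1, Bid and Bmf were above Input and the other 6 below it, so that each side of the family was divided, with 2 survival and 2 death members above and 3 of each below. Calls of this kind were common, made for 34.1% of the 17416 tested genes in the higher direction and 34.6% in the lower. The median log2 ratio was -0.23 over the 10 members and 0.019 over all tested genes.

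Bcl2 was the member with the highest recovery. Its Ctrl Inputs held 39.6, 36.8 and 34.3 CPM and its Ctrl IPs 217, 232 and 221 CPM, after TMM scaling of the 12 libraries, as for every level below. The groups lay far apart, and the fit gave a log2 ratio of 2.67 (SE 0.061, adjusted p = 1.3e-16), which is 6.38-fold and above the ratio of 95.8% of tested genes. In IR the Inputs held 33.6, 32.9 and 31.4 CPM and the IPs 126, 139 and 147 CPM, a log2 ratio of 2.12 (SE 0.076, adjusted p = 1.37e-09).

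Bcl2l1, the other survival gene above Input, was recovered more modestly. The Ctrl Inputs held 94.2, 99.5 and 95.7 CPM against 173, 151 and 166 CPM in the Ctrl IPs, and the IR Inputs 117, 122 and 118 CPM against 189, 171 and 185 CPM in the IR IPs. IP was above Input in all 6 pools, with log2 ratios of 0.84 (SE 0.054, adjusted p = 2.57e-10) in Ctrl and 0.66 (SE 0.057, adjusted p = 1.88e-06) in IR.

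Mcl1, the most abundant survival transcript in reads, was recovered below its abundance. It was measured at 542, 579 and 561 CPM in the Ctrl Inputs and at 305, 295 and 301 CPM in the Ctrl IPs. In IR the Inputs held 696, 723 and 702 CPM and the IPs 385, 387 and 383 CPM. The log2 ratio was -0.83 (SE 0.038, adjusted p = 1.9e-12) in Ctrl and -0.82 (SE 0.037, adjusted p = 7.86e-09) in IR, so that both levels were higher in IR and their ratio was close to the same.

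The Bcl2a1 copies also lay below Input. Bcl2a1d, at 183, 170 and 171 CPM in the Ctrl Inputs and 100, 102 and 99.6 CPM in the Ctrl IPs, had a log2 ratio of -0.72 (SE 0.049, adjusted p = 5.25e-10). Bcl2a1b, at 46.5, 41.6 and 43.9 CPM against 36.5, 34.1 and 39.6 CPM, had one of -0.19 (SE 0.08, adjusted p = 0.0484). This last call was fragile. With IP and Input of the same number paired it was lost at the same log2 ratio of -0.19 (adjusted p = 0.0597). It was also lost without Ctrl pool 1 (-0.12, adjusted p = 0.305), without pool 2 (-0.17, adjusted p = 0.145) and without pool 3 (-0.22, adjusted p = 0.0638).

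Of the death genes, Bid, which links death receptors to mitochondria, was recovered above Input. Its levels were 32.1, 27.1 and 29.9 CPM in the Ctrl Inputs and 61.8, 64.3 and 66.5 CPM in the Ctrl IPs, a log2 ratio of 1.19 (SE 0.077, adjusted p = 2.66e-10). In the IR Inputs Bid was at 25, 29.9 and 27.8 CPM and in the IR IPs at 40.6, 38.5 and 44.8 CPM, a log2 ratio of 0.64 (SE 0.11, adjusted p = 0.000362). IP and Input did not overlap in either condition.

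Bad, which counters BCL2 and BCL-XL when survival signalling is withdrawn, had the lowest recovery. It held 18.9, 18.7 and 18.2 CPM in the Ctrl Inputs and 3.84, 3.53 and 6.03 CPM in the Ctrl IPs, a log2 ratio of -1.99 (SE 0.17, adjusted p = 1.57e-08). The IP values rested on 113 to 162 counts per library in Ctrl, the fewest of any member, and the ratio stood above that of 5.73% of tested genes. In IR, the Inputs at 24.2, 23.3 and 20 CPM and the IPs at 5.15, 6.76 and 8.79 CPM gave -1.65 (SE 0.2, adjusted p = 2.84e-05).

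Bcl2l11, the gene of BIM, was the second lowest in Ctrl. Its Ctrl Inputs held 49.4, 53.2 and 48.2 CPM and its Ctrl IPs 27.3, 24.2 and 25.2 CPM, a log2 ratio of -0.90 (SE 0.08, adjusted p = 1.99e-08). In IR the Inputs held 78.4, 75.6 and 73 CPM and the IPs 57.8, 45.1 and 58.5 CPM, a ratio of -0.44 (SE 0.1, adjusted p = 0.00292), which was -0.26 (adjusted p = 0.043) without IR pool 2. IP lay below Input in all 6 pools.

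Bak1 and Bmf had ratios nearer to 0. Bak1 was at 142, 135 and 146 CPM in the Ctrl Inputs and 112, 104 and 114 CPM in the Ctrl IPs (log2 ratio -0.28, SE 0.052, adjusted p = 0.000111), and at 139, 135 and 134 CPM against 76.7, 104 and 106 CPM in IR (-0.45, SE 0.11, adjusted p = 0.00322), where IR pool 1 was lowest and the ratio without it was -0.23 (adjusted p = 0.0142). Bmf, which senses loss of attachment, was at 27.9, 28.8 and 33 CPM in the Ctrl Inputs and 41.9, 30.9 and 33.1 CPM in the Ctrl IPs. Its log2 ratio of 0.31 (SE 0.11, adjusted p = 0.0152) rested on pool 1, since without it the ratio was 0.15 (adjusted p = 0.229), and Input and IP overlapped in their ranges. In IR Bmf was at 35.4, 34.5 and 37.5 CPM against 35, 40.4 and 31.9 CPM, with a log2 ratio of 0.053 (SE 0.11, adjusted p = 0.691) that missed the threshold.

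**Figure D3:**
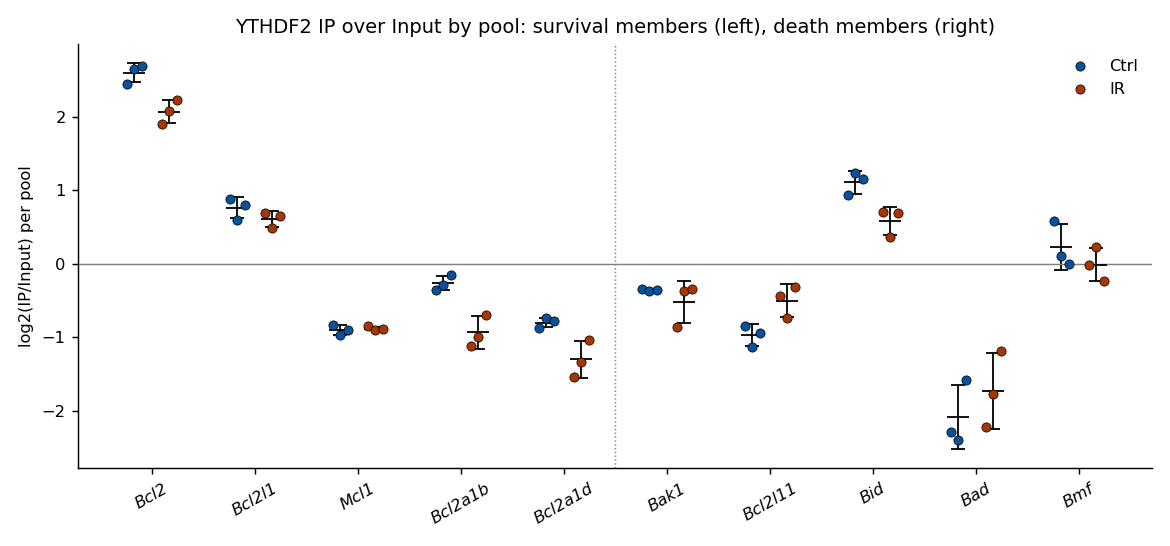
Log2 of IP over Input for each member, computed per pool from CPM after TMM scaling of the 12 libraries; points are pools (blue Ctrl, red IR), bars the mean ± SD (n = 3), and the dotted line parts survival from death members. Ctrl and IR pools are apart for Bcl2 (2.45 to 2.69 against 1.9 to 2.22) and for both Bcl2a1 genes, and lie on each other for Mcl1.

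In IR, 3 members were above Input (Bcl2, Bcl2l1 and Bid) and 6 below it. All tested genes were called higher at 32.1% and lower at 30.5% of 18650. The members' median log2 ratio was -0.45 beside 0.10 over all tested genes. Among the 5 survival members it was -0.19 in Ctrl and -0.82 in IR, and among the 5 death members -0.28 and -0.44. Each of these medians is the value of 1 gene, and not the same one in both conditions, being Bcl2a1b in Ctrl and Mcl1 in IR for survival and Bak1 in Ctrl and Bcl2l11 in IR for death.

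Whether recovery differed between the conditions was tested directly, as an interaction term in a fit of all 12 libraries. Bcl2, Bcl2a1b, Bcl2a1d and Bid had a lower IP/Input in IR than in Ctrl, and Bcl2l11 had a higher one. Thus 3 of 5 survival members went down and none up, while 1 death member went up and 1 down. Among these 3 are the near copies Bcl2a1b and Bcl2a1d, whose split of reads is uncertain, so they are not separate observations. Over the 20720 tested genes, 6.28% were called higher and 13.9% lower (13.7% and 4.3% with libraries scaled by total counts only), and the median change was -0.084 over all genes and -0.20 over the members. The contrasts within Ctrl and within IR above use the same libraries as this test.

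Bcl2 had a log2 change of -0.53 (SE 0.096, adjusted p = 0.000425), and every IR pool was below every Ctrl pool. Bcl2a1b had -0.67 (SE 0.13, adjusted p = 0.000829), again with pools that did not overlap, at -0.35, -0.29 and -0.15 in Ctrl and -1.12, -0.99 and -0.69 in IR (log2 IP/Input per pool). Bcl2a1d had -0.49 (SE 0.11, adjusted p = 0.00297), at -0.87, -0.74 and -0.78 against -1.54, -1.33 and -1.03. For these A1 genes the lower ratio went with a higher Input and an IP level near that of Ctrl, at 82.8, 92.3 and 114 CPM of Bcl2a1d in the IR IPs and 31.3, 33.5 and 39.6 CPM of Bcl2a1b.

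Bid changed by -0.53 (SE 0.13, adjusted p = 0.0066), with 0.94, 1.24 and 1.15 in the Ctrl pools and 0.7, 0.36 and 0.69 in the IR pools. Bcl2l11 changed by 0.48 (SE 0.13, adjusted p = 0.0119), from -0.85, -1.13 and -0.94 to -0.44, -0.74 and -0.32. The pools of the conditions did not overlap for either gene. Both calls depended on single pools: that of Bcl2l11 was lost without Ctrl pool 2 (0.40, adjusted p = 0.0922) or IR pool 3 (0.41, adjusted p = 0.0585), and that of Bid without Ctrl pool 2 (-0.46, adjusted p = 0.053) or IR pool 2 (-0.40, adjusted p = 0.0534).

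For the other 5 members the change missed the threshold. It was 0.024 (SE 0.052, adjusted p = 0.815) for Mcl1, -0.15 (SE 0.082, adjusted p = 0.228) for Bcl2l1, -0.15 (SE 0.12, adjusted p = 0.473) for Bak1, 0.36 (SE 0.28, adjusted p = 0.433) for Bad and -0.24 (SE 0.17, adjusted p = 0.363) for Bmf. The SE of Bad was the widest of the family.

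These changes are relative to the scale that TMM sets for each library, and the IR IPs differed from the rest in that scale. When libraries were scaled by their total count on genes only, the median over all genes shifted upward by 0.31, Bcl2 changed by -0.22 (adjusted p = 0.113), Bcl2a1b by -0.36 (adjusted p = 0.0522), Bcl2a1d by -0.18 and Bid by -0.22, none past the threshold, whereas Bcl2l11 (0.79) and Mcl1 (0.33, adjusted p = 0.000127) were called higher, and the values of Bcl2l1, Bak1 and Bmf turned positive. Relative to the median of all genes, the members stood at the same distance under both scalings. This holds by construction, since a scaling shifts all genes of a library alike, and it is no check of the calls. The difference from that median was -0.45 with TMM and -0.44 with total counts for Bcl2, and with either scaling -0.58 for Bcl2a1b, -0.41 for Bcl2a1d, -0.44 for Bid and 0.57 for Bcl2l11.

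**Figure D4:**
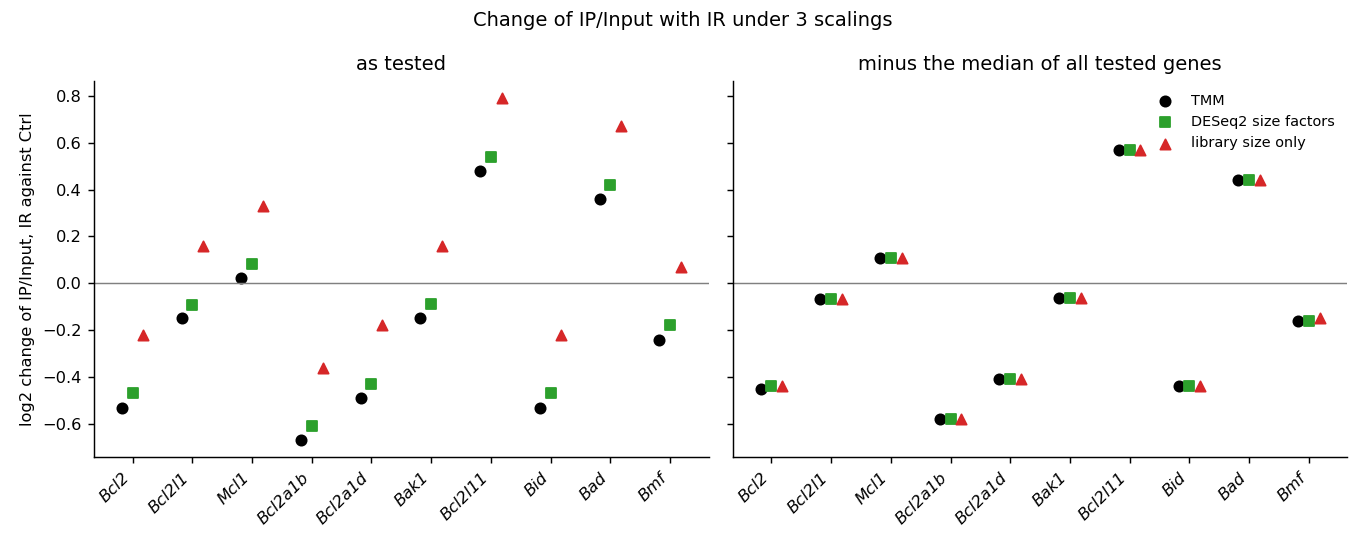
Log2 change of IP/Input in IR against Ctrl for each member under TMM (black), DESeq2's size factors (green) and total counts only (red). As tested (left panel) the red triangles sit higher, with Bcl2 at -0.22 against -0.53. After subtracting the median of all tested genes (right panel) the 3 scalings lie together by construction, with Bcl2l11 at 0.57.

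A ratio of 2 members within a library carries no such scale. The ratio of Bcl2 to Mcl1 was 9.76, 12.3 and 12 times higher in IP than in Input in the Ctrl pools, and 6.75, 7.89 and 8.56 times in the IR pools. The ratio of Bcl2l1 to Bcl2l11, a survival transcript against the one for BIM, was 3.32, 3.34 and 3.33 times higher in IP in Ctrl and 2.19, 2.34 and 1.96 times in IR. The ranges of Ctrl and IR did not overlap for either pair.

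Further ratios to Bcl2l11 moved the same way. That of Mcl1 was 1.02, 1.12 and 1.03 times its Input value in the Ctrl IPs and 0.751, 0.897 and 0.68 times in the IR IPs, and that of Bcl2a1d was 0.99, 1.32 and 1.11 times and 0.467, 0.666 and 0.612 times. All 3 pairs with Bcl2l11 share that gene, so they are not separate observations. The ratio of Bcl2 to Bid, both lower in IR, was 2.86, 2.66 and 2.9 times its Input value in Ctrl and 2.3, 3.28 and 2.89 times in IR, with overlapping ranges. A ratio shows unequal change of its members and does not tell which of them moved.

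In the Input, the comparison of IR with Ctrl gives the change of transcript abundance itself, tested on the 6 Input libraries alone. Bcl2l1, Mcl1, Bcl2a1b, Bcl2a1d, Bcl2l11 and Bmf were higher in IR, and Bcl2, Bak1 and Bid lower. Thus 4 of 5 survival members rose, among them the near copies Bcl2a1b and Bcl2a1d, which are not separate observations. All genes were called higher at 21% and lower at 23.9% of 16914, and the median log2 fold change was 0.21 over the members and 0.0073 over all tested genes. The largest rises were those of Bcl2a1b and Bcl2l11, a survival and a death gene, with log2 fold changes of 0.51 (SE 0.052, adjusted p = 6.23e-09) and 0.51 (SE 0.049, adjusted p = 2.18e-09).

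Bcl2a1d rose by 0.35 (SE 0.036, adjusted p = 9.39e-09), from 183, 170 and 171 CPM to 241, 232 and 232 CPM. Mcl1 rose by 0.26 (SE 0.03, adjusted p = 6.03e-08) and Bcl2l1 by 0.22 (SE 0.039, adjusted p = 2.88e-05). The IR Inputs of these 5 genes lay above the Ctrl Inputs without overlap. Bmf rose by 0.18 (SE 0.066, adjusted p = 0.028), a call that was lost without Ctrl pool 1 (0.13, adjusted p = 0.132), Ctrl pool 2 (0.15, adjusted p = 0.122) or IR pool 3 (0.15, adjusted p = 0.121).

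The falls were smaller. Bcl2 fell by 0.26 on the log2 scale (SE 0.064, adjusted p = 0.00169), Bak1 by 0.13 (SE 0.038, adjusted p = 0.0065) and Bid by 0.19 (SE 0.075, adjusted p = 0.0445). With all 12 libraries in one fit none of these 3 passed the threshold (-0.18, -0.051 and -0.11), nor did the rise of Bmf (0.26, adjusted p = 0.138), and 12.6% of all genes were called higher and 7.24% lower. On the scale of all 12 libraries the Inputs of Bak1 and of Bid overlapped between the conditions. The call of Bid was also lost without Ctrl pool 1 (-0.13, adjusted p = 0.21), Ctrl pool 3 (-0.19, adjusted p = 0.0903), IR pool 1 (-0.12, adjusted p = 0.237) or IR pool 3 (-0.19, adjusted p = 0.0783). Bad, at 0.20 (SE 0.081, adjusted p = 0.0518), just missed the threshold, and without IR pool 3 it was called higher (0.28, adjusted p = 0.0101).

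The summed level of the 7 neutrophil markers was 5883 to 6609 CPM in the Ctrl Inputs and 8221 to 8956 CPM in the IR Inputs. That of the 6 myeloid markers was 4344 to 4450 and 5486 to 5562 CPM, and that of the 7 monocyte and macrophage markers 580 to 596 and 598 to 635 CPM. Most of the neutrophil sum was S100a8 (means of 2100 and 2902 CPM) and S100a9 (3516 and 4901 CPM). Mmp9 was lower in IR (133 and 119 CPM) and the other neutrophil markers higher. Itgam rose most in the myeloid list (943 and 1717 CPM), where only Csf1r was lower (213 and 208 CPM). Adgre1, Mrc1 and Apoe were lower (31.3 and 28, 124 and 94.9, 28.4 and 23.5 CPM) and the other monocyte and macrophage markers higher. All markers of these lists were detected in both groups. Their part in the Input changes of the BCL2 family was not tested. In sorted cells measured in bulk, a different number of cells of a type and a different amount of RNA per cell cannot be told apart.

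In the IP libraries, where IR was compared with Ctrl, Bcl2 and Bid were lower and Mcl1 and Bcl2l11 higher. All genes were called higher at 6.12% and lower at 9.85% of 19255 (13.7% and 4.36% with total counts as the scale), and the median log2 fold change was -0.011 over the members and 0.062 over all tested genes. Bcl2l11 was the member that moved most, from 27.3, 24.2 and 25.2 CPM to 57.8, 45.1 and 58.5 CPM, a log2 fold change of 1.08 (SE 0.12, adjusted p = 1.33e-05) beside 0.51 in the Input. Bcl2 fell by 0.70 on the log2 scale (SE 0.069, adjusted p = 2.59e-06) beside a fall by 0.26 in the Input, and Bid by 0.63 (SE 0.099, adjusted p = 0.000318) beside 0.19.

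Mcl1 rose by 0.37 in the IP (SE 0.049, adjusted p = 6.34e-05) and by 0.26 in the Input. Bcl2a1b and Bcl2a1d, which rose in the Input, had IP values of -0.069 (SE 0.12, adjusted p = 0.774) and -0.053 (SE 0.1, adjusted p = 0.787). Bcl2l1 had 0.16 (adjusted p = 0.135), Bak1 -0.19 (adjusted p = 0.264), Bad 0.64 (SE 0.31, adjusted p = 0.188) and Bmf 0.03 (adjusted p = 0.92) in the IP, none past the threshold. With total counts as the scale the IP values of Bcl2a1b, Bcl2a1d and Bak1 turned positive (0.13, 0.15 and 0.012), that of Bcl2l1 was 0.36 and past the threshold (adjusted p = 0.00183), and the median of all genes moved by 0.20.

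**Figure D5:**
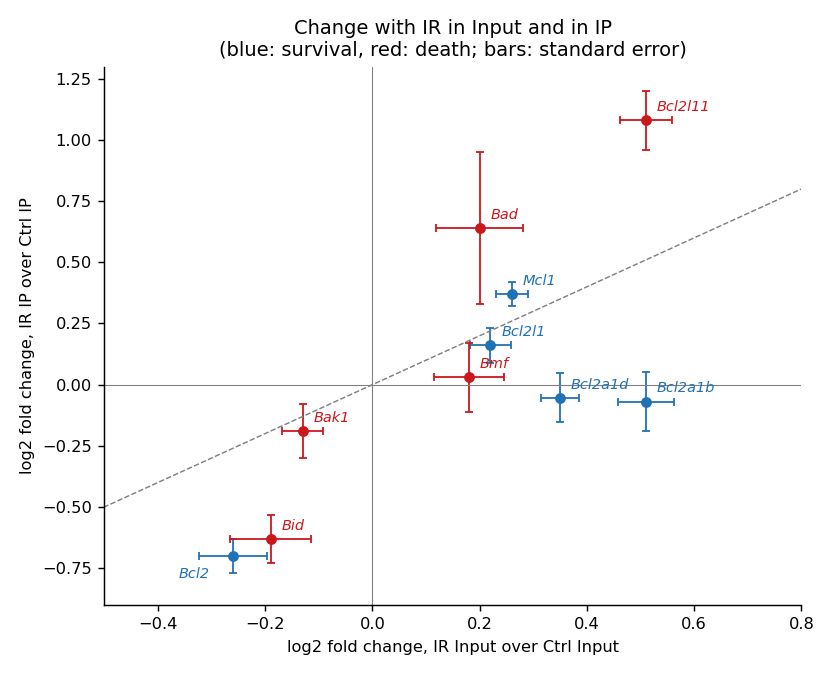
Log2 fold change of each member between IR and Ctrl in the Input (horizontal axis) and in the IP (vertical axis), from edgeR; bars are standard errors, blue is survival and red death, and the dashed line marks equal change. Bcl2l11 lies above the line at 0.51 and 1.08, Bcl2 and Bid below it, and both Bcl2a1 genes below it with IP values near 0.

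The genes with the most similar pattern over the 12 libraries were searched among 10576 genes with at least 100 counts per library on average, by Pearson's r of log2 CPM. For Mcl1 they were Eif3h (0.997), Rasa3 (0.996) and Eif3f (0.995), of which Eif3h and Eif3f encode subunits of a translation initiation factor. For Bcl2l11 they were Prcp (0.974), Tob1 (0.972) and Ccng1 (0.972), the last a cyclin gene known as a p53 target. Mean levels of Ccng1 were 169 CPM (Ctrl) and 429 CPM (IR) in Input, and 55.3 CPM (Ctrl) and 174 CPM (IR) in IP. The libraries share a fraction or a condition in groups of 3, so that these values describe group differences in common and carry no test.

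The rest of the family was taken as a list of 18 further genes, of which 15 were tested in Ctrl and in the interaction and 14 in IR. In Ctrl 3 were above Input and 6 below (34.1% and 34.6% over all genes), in IR 2 and 7 (32.1% and 30.5%), and in the interaction 1 was higher and 2 lower (6.28% and 13.9%). Pmaip1, which encodes the BH3-only protein NOXA and binds MCL1, was below Input in Ctrl (log2 ratio -1.88, SE 0.11, adjusted p = 3.34e-11), and its IP/Input was higher in IR by 0.67 (SE 0.15, adjusted p = 0.00212), as it was for Bcl2l11.

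Pmaip1 also rose by 1.07 in the IP and by 0.30 in the Input, where it went from 51.1 ± 1.8 to 66.6 ± 2.66 CPM (SD, n = 3). Bax, the other main pore-forming effector beside Bak1, rose in the Input by 0.95 (SE 0.038, adjusted p = 4.62e-17), from 86.5 ± 2.97 to 176 ± 2.34 CPM, and its IP/Input was lower in IR (-0.38, SE 0.098, adjusted p = 0.00812). Bak1, with a fall by 0.13, did not share the rise of Bax. Bcl2a1a, a copy of the A1 genes outside the 10, had an interaction of -0.50 (SE 0.11, adjusted p = 0.00272), beside -0.67 and -0.49 of Bcl2a1b and Bcl2a1d, with which it shares reads.

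The genes of the apoptosome, the caspases and mitochondrial release were mostly below Input. Over all genes, 34.6% were called below it in Ctrl and 30.5% in IR. Of the 14 genes of this list, 2 were above Input and 12 below in Ctrl (median log2 ratio -1.44, beside 0.019 over all genes). In IR 0 were above and 12 below (median -1.47, beside 0.10). Their IP/Input was higher in IR at 2 and lower at 2, where all genes gave 6.28% and 13.9%. Apaf1, the scaffold of the apoptosome, had a change of 0.49 (SE 0.13, adjusted p = 0.0126) and Casp2 one of 0.82 (SE 0.24, adjusted p = 0.0207), while Diablo and Htra2, whose proteins leave mitochondria and relieve caspase inhibition, had -0.48 (adjusted p = 0.0355) and -0.45 (adjusted p = 0.00185).

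Among 9 inhibitor of apoptosis (IAP) genes, 2 had a higher IP/Input in IR and 4 a lower one (6.28% and 13.9% over all genes), and of the 8 tested in Ctrl 3 were above Input and 4 below. Xiap changed by 0.51 (SE 0.11, adjusted p = 0.00203), Birc3 by -0.51 (SE 0.079, adjusted p = 8.6e-05), Naip5 by -0.50 and Birc5 by -0.50.

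MCL1 protein is removed through ubiquitin, and of 7 genes of this step 2 had a higher and 1 a lower IP/Input in IR among 6 tested, on the same background. Fbxw7, a ubiquitin ligase subunit, was recovered above Input to a degree beyond that of Bcl2, with log2 ratios of 2.94 (SE 0.047, adjusted p = 1.9e-18) in Ctrl and 2.32 in IR, and its IP/Input was lower in IR by 0.60 (log2 change -0.60, SE 0.069, adjusted p = 2.12e-06). Huwe1, another ligase, and Usp9x, which removes ubiquitin from MCL1, were both below Input in Ctrl (-0.69 and -1.42) and had a higher IP/Input in IR (0.53 and 1.05). The transcripts of both fell in the Input, by 0.52 and 0.83 on the log2 scale, while Mcl1 itself rose.

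The positions of the 10 genes on mm10 are given last. Bcl2 (ENSMUSG00000057329.7) lies on chr1:106538178-106714274, minus strand, Bcl2l1 (ENSMUSG00000007659.18) on chr2:152780668-152831728, minus strand, and Mcl1 (ENSMUSG00000038612.16) on chr3:95658788-95663176, plus strand. Bcl2a1b (ENSMUSG00000089929.1) and Bcl2a1d (ENSMUSG00000099974.1) lie on chromosome 9, at chr9:89199209-89207827, plus strand, and chr9:88723285-88731914, minus strand. Bak1 (ENSMUSG00000057789.13) lies on chr17:27019810-27029009, minus strand, Bcl2l11 (ENSMUSG00000027381.16) on chr2:128126038-128162547, plus strand, and Bid (ENSMUSG00000004446.12) on chr6:120891930-120916853, minus strand. Bad (ENSMUSG00000024959.13) lies on chr19:6941861-6951899, plus strand, and Bmf (ENSMUSG00000040093.15) on chr2:118528757-118549687, minus strand.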

How the data were processed

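Reads had been trimmed (Trimmomatic), aligned to mm10 (HISAT) and assigned to GENCODE genes (HTSeq) by the authors. The deposited values are counts per gene and library, without normalization. They come with summary lines on reads that were not counted, which were kept out of library sizes and tests. Reads assigned to no gene were 24.6 to 54.1% of uniquely aligned reads. The strand option of the counting is not given in the sources used here. PCR copies were not marked, so depth covers counting error only.

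Symbols, exons and coordinates came from GENCODE M21 of the same build, in which 97.8% of the 54446 identifiers were found with the version number and 99.9% when it was ignored. Counts were scaled by TMM and tested in edgeR 4.0.16 (quasi-likelihood, R 4.3.3) over genes reaching 10 counts in 3 or more of the libraries compared, with Benjamini-Hochberg adjustment over all tested genes and a threshold of 0.05. Levels are CPM after TMM scaling of the 12 libraries, while each fold change uses the scale of its own comparison, so that folds read from the levels can differ from those fitted. The SE was derived from the fold change and its F statistic (size over root F). TMM takes most genes as unchanged and cannot show a change of recovery shared by most genes.

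The members, the lists and the tests were chosen with earlier results of these data known. Named were the 10 members, Ythdf2, the 3 genes most correlated with Mcl1 and with Bcl2l11, and from each list up to 4 genes past the threshold in the change of IP/Input, those with the largest change and a mean of at least 100 counts. Samples were grouped by their titles and treatment labels. Per the methods, an IP and its Input came from 1 lysate. That libraries with the same number form such a pair was assumed from the titles and is not stated. Values given per pool rest on this match, and it was used for pairing in an alternative fit. The deviations of same-numbered IP and Input across 11728 genes were not correlated (-0.0225 to 0.0398). Same-numbered Ctrl and IR pools came from different mice. Alternatives were DESeq2 1.42.0, its size factors, total counts only, no filter, the replicate block, all 12 libraries in one fit, summed Bcl2a1 copies and each pool left out.

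Tested on simulated counts with 200 genes changed 2-fold, the steps found 96.5% of them when IP was set against Input in Ctrl (over 17662 genes) and 96% in IR (over 20693). They found 65% for the change of IP/Input (over 20385), 97% for IR against Ctrl in Input (over 16908) and 95.5% in IP (over 20504). False calls were 2.04 to 5.37% of all calls. All simulated libraries had the same dispersion, whereas the real IR IPs varied more than the other groups. The members' called changes of IP/Input were also smaller than 2-fold, so these shares do not carry over to them.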

Additional observations from a re-analysis of the deposited data

Results flagged for a closer look

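The IP/Input of 5 members differed between IR and Ctrl by the test of the interaction itself (edgeR with Benjamini-Hochberg adjustment), which called 6.28% of all genes higher and 13.9% lower. With libraries scaled by total counts only, the call of Bcl2l11 remained and the other 4 were lost. For Bcl2 it was lower in IR by a log2 change of -0.53 (2.07 ± 0.161 in the IR pools and 2.6 ± 0.126 in the Ctrl pools, log2 IP/Input, SD, n = 3). For Bcl2a1b the log2 change was -0.67, and for Bcl2a1d it was -0.49, with 3 of 3 IR pools below all Ctrl pools for both. For Bid the log2 change was -0.53, with 3 of 3 IR pools below all Ctrl pools. For Bcl2l11 it was 0.48, with 3 of 3 IR pools above all Ctrl pools.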

How the results depend on the processing

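With total counts as the only scale, 2 members had a higher and 0 a lower IP/Input in IR, in place of 1 and 4, beside 13.7% and 4.3% of all genes in place of 6.28% and 13.9%, and the values of Bcl2l1 (0.16), Bak1 (0.16) and Bmf (0.069) turned positive, as did the IP changes of Bcl2a1b (0.13), Bcl2a1d (0.15) and Bak1 (0.012). This scaling moved the median of all genes by 0.31 in the change of IP/Input, by -0.18 and 0.15 in IP against Input in Ctrl and IR, and by 0.20 in the IP. With all 12 libraries in one fit, 0 members were lower in the IR Input in place of 3 (7.24% of all genes in place of 23.9%) and 5 higher in place of 6, the IP/Input of Bmf in IR was -0.00012, and Bad was higher in the IR IP (0.63, adjusted p = 0.0313). Without a filter on low counts Bmf had -0.084 for IP/Input in IR and -0.0033 for the IP change. The cause of these differences was not tested. With each pool left out in turn, the number of members with a higher IP/Input in IR was 0 to 1, and values that crossed 0 ranged from -0.0011 to 0.24 for Bmf IP/Input in IR, from -0.0083 to 0.064 for the change of IP/Input of Mcl1 and from -0.22 to 0.022 for that of Bak1, and in the IP from -0.16 to 0.014 for Bcl2a1b, from -0.18 to 0.058 for Bcl2a1d and from -0.056 to 0.18 for Bmf, none of which was past the threshold with all pools. The replicate block ended the call of Bcl2a1b in Ctrl (-0.19, adjusted p = 0.0597) and changed no other call of IP against Input or of its change; the pool numbers of Ctrl and IR share only a number, and as a block in the Input they made Bad called higher (0.19, adjusted p = 0.0426). DESeq2 ended 2 calls, those of Bcl2a1b in Ctrl (-0.16) and Bid in the Input (-0.18). In simulated counts the interaction recovered the fewest changed genes, and Bad rests on the fewest IP counts.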
